A study of Bos taurus with 12 samples.

Results

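The family of miR-148 and miR-152 was described across mammary biopsies of Chinese Holstein cows, through its members bta-miR-148a, bta-miR-148b and bta-miR-152. The members were picked from the table by name, and each was listed with 1 precursor, so they were 3 of the 388 mature miRNAs that 426 precursor entries gave. Each of the 12 small RNA libraries came from a different cow. Lactating cows, at 70 to 85 days in milk, were grouped by their milk protein percentage as HP (high) and LP (low). Non-lactating (dry) cows were grouped likewise as HD (high) and LD (low), and were biopsied when 24 to 35 days had passed since dry-off and 20 to 39 days remained until calving. There were 3 libraries in each of the 4 groups, and the animals carried no genetic modification or drug treatment that the labels name. A biopsy is a mixture of milk-making epithelium, stroma, vessels and blood cells. In such bulk samples fewer cells of a type and less RNA per cell cannot be told apart. HP and LP cows were different animals from HD and LD cows, so the stage of the gland and the set of cows sampled cannot be told apart either.

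A miRNA is a short RNA that guides a silencing complex to partly matching sites in messenger RNAs, mainly through its 5′ seed. miR-148a, miR-148b and miR-152 share their seed and are therefore expected to recognise overlapping sets of targets, of which the maintenance DNA methyltransferase DNMT1 is a well-known example. miR-148a is known as one of the most abundant miRNAs of milk and of the lactating mammary gland. The members are encoded at separate loci, and in the RefSeq annotation of ARS-UCD2.0 all 3 were found. MIR148A on chromosome 4 lay in no annotated gene, between the coding genes NFE2L3 and NPVF. MIR148B on chromosome 5 lay within COPZ1 and MIR152 on chromosome 19 lay within COPZ2, genes for the zeta subunits of the COPI vesicle coat.

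Expression was given in TPM, which here means miRNA reads scaled to a common total (reads per 1e6) with no correction for length. A mature miRNA is read whole, so levels of different members were set side by side on this scale, although their sequences can be captured with unequal efficiency. Implied library depth was 6026797 to 13374171 reads in lactation and 11047701 to 23577942 in the dry period. A count of 3 reads corresponded to 0.127 to 0.498 TPM, far under the level of any member. miR-148a had at least 227002 reads in every library, miR-148b at least 5358 and miR-152 at least 2222. Exact binomial 95% intervals were at most 0.407%, 2.69% and 4.18% of the respective value to either side. These intervals cover counting error only. The members are alike in sequence outside the seed too, and how far reads of miR-148a were counted for its rarer relatives was not tested.

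miR-148a was the highest expressed miRNA of the lactating gland. Its TPM in HP was 160459, 140845 and 150922 (replicates 1 to 3). In LP it was 176003, 106978 and 191286, in HD 20547, 18568 and 22411, and in LD 53311, 15768 and 24465. Every lactation library lay above every dry library and the nearest values were those of LP2 and LD1. miR-148a ranked 1 in 5 of the 6 lactation libraries and 2 in LP2, where miR-143, a smooth muscle miRNA, was highest at 144971 TPM. In the dry libraries it ranked 3 to 11, and miR-26a, miR-143 or miR-30a-5p stood first. Ordered by their means, the groups were LP (158089 ± 44918 TPM, SD, n = 3), HP (150742 ± 9808), LD (31182 ± 19652) and HD (20509 ± 1922). LP and HP overlapped, as did LD and HD, and the only step in this order without overlap was that between HP and LD.

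miR-148b was about equally expressed in all groups. In HP it had 889, 954 and 1114 TPM, in LP 936, 894 and 1061, in HD 1023, 1184 and 876, and in LD 1165, 591 and 765. The highest and the lowest library were both dry, and all pairs of groups overlapped. Group means were 1028 ± 154 TPM in HD, 985 ± 116 in HP, 964 ± 86.7 in LP and 841 ± 294 in LD (SD, n = 3), so no neighbours in this order differed beyond their spread. Its rank was 57 to 74 in lactation and 60 to 73 in the dry period.

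miR-152 was the least expressed member and was widely spread within 3 of the 4 groups. In HP it had 483, 245 and 217 TPM, in LP 489, 579.9 and 582, in HD 537, 251 and 564, and in LD 267, 610.1 and 376. All LP values lay above all HP values, but HP1 at 483 TPM was within counting error of LP1 at 489 (95% intervals 465 to 501 and 477 to 501 TPM), and the dry groups overlapped. Group means were 550.2 ± 53.0 TPM in LP, 451 ± 173 in HD, 418 ± 175 in LD and 315 ± 146 in HP (SD, n = 3). The neighbours LP and HD, HD and LD, and LD and HP overlapped.

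**Figure D1:**
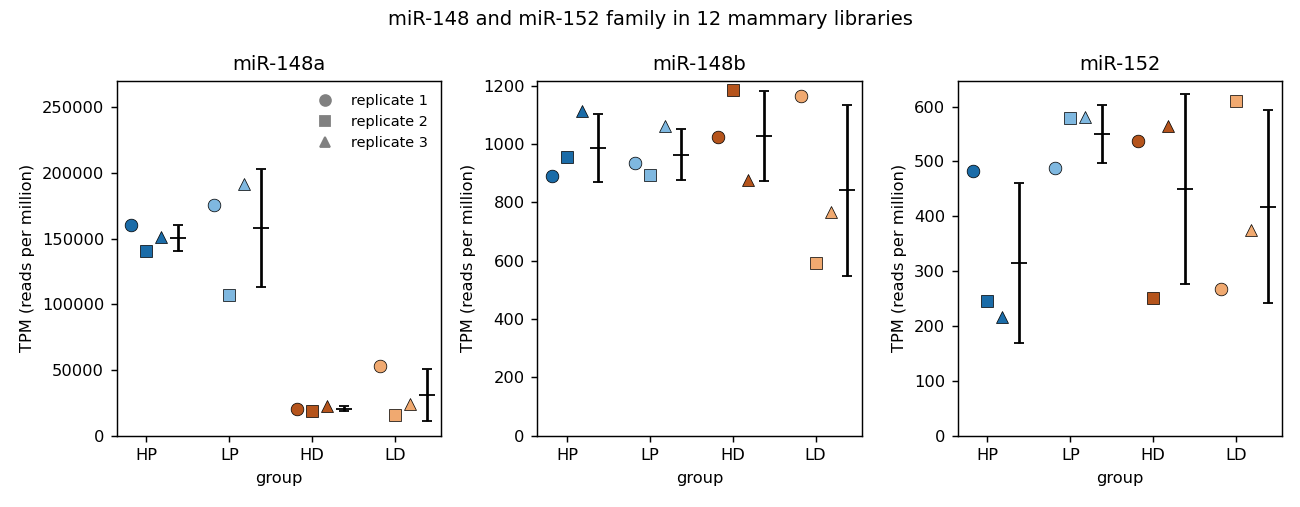
TPM (scaled miRNA reads, linear axes from 0) of each member in every library, by group; circles, squares and triangles are replicates 1 to 3 and the bars are the mean ± SD of 3 libraries. The 6 lactation libraries of miR-148a sit between 106978 and 191286 TPM, all above the dry libraries, while miR-148b and miR-152 overlap between stages.

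The members together took 15.6% ± 2.94 of all TPM in lactation (SD, n = 6, range 10.8% to 19.3%) and 2.72% ± 1.38 in the dry period (range 1.70% to 5.47%). Nearly all of it was miR-148a, which made up 98.6% to 99.2% of the family in lactation and 92.8% to 97.4% in the dry period. miR-148b made up 0.642% ± 0.120 of the family in lactation and 3.80% ± 1.32 in the dry period, and miR-152 0.288% ± 0.138 and 1.93% ± 1.09. The shares of the lesser members thus were higher in the dry period while their own TPM overlapped between the stages.

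To ask how the family differed between lactation and the dry period, TPM was divided by size factors and compared on a log2(value + 1) scale with limma. miR-148a was higher in lactation by a log2 difference of 2.79 (SE 0.26, 95% interval 2.23 to 3.35), which is 6.92-fold (Benjamini-Hochberg adjusted p = 1.1e-05, limma). Of all 388 miRNAs 44.3% were called, 22.2% as higher and 22.2% as lower in lactation, so a call by itself was common. The difference of miR-148a ranked 4 of 388 by p and 4 by size, and 3 by size among the 234 miRNAs with a mean of at least 10 TPM. The normalized values of the stages did not overlap for miR-148a (exact two-sided permutation test, p = 0.00216, the smallest that 6 against 6 libraries can give), which was so for 11.6% of miRNAs in this direction.

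For the other members no stage difference was detected. miR-148b differed by 0.21 (SE 0.18, 95% interval -0.18 to 0.59, adjusted p = 0.365, limma), and its exact permutation p was 0.147 (n = 6 and 6). miR-152 differed by 0.09 (SE 0.37, interval -0.72 to 0.89, adjusted p = 0.874), with an exact permutation p of 0.846. The intervals of miR-148b and of miR-152 both end far under the difference of miR-148a, and that of miR-152 is the wider.

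**Figure D2:**
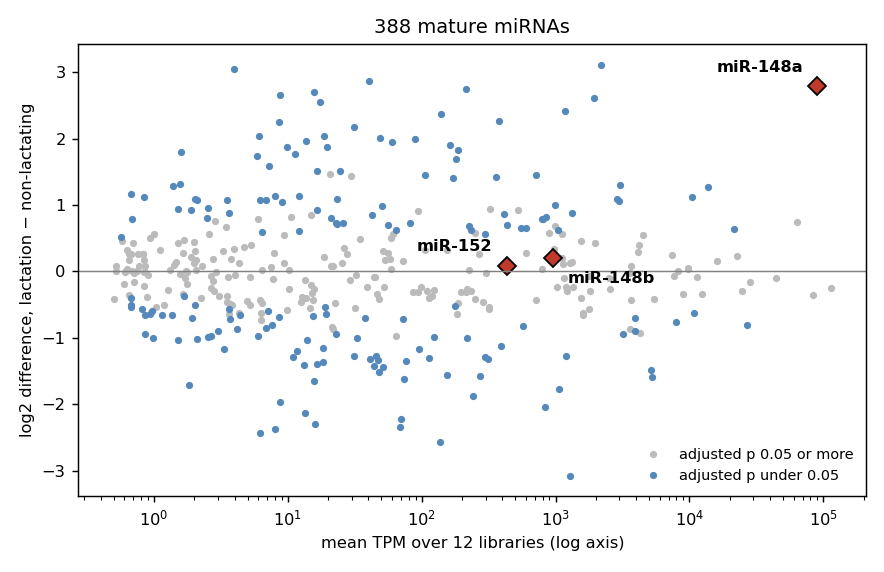
Log2 difference between lactation and the dry period of normalized TPM + 1 (positive is higher in lactation) against mean TPM over 12 libraries on a log axis, 1 point per mature miRNA, with the 3 members as diamonds and miRNAs of adjusted p under 0.05 in blue. miR-148a at 2.79 stands apart from the other abundant miRNAs, and miR-148b (0.21) and miR-152 (0.09) sit near 0.

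Stage was next compared within each milk protein class. Between HP and HD, miR-148a differed by 3.08 (SE 0.36, adjusted p = 0.000158, limma), where 14.7% of miRNAs were called higher in HP. Between LP and LD it differed by 2.50 (SE 0.36, adjusted p = 0.00113), where 12.1% were called higher in LP. In both classes all 3 lactation libraries exceeded all 3 dry ones, as did 21.1% of miRNAs for HP against HD and 19.3% for LP against LD, and an exact permutation test of 3 against 3 cannot give a p under 0.1. miR-148b differed by 0.15 (SE 0.25) between HP and HD and by 0.26 (SE 0.25) between LP and LD. miR-152 differed by -0.32 (SE 0.53) and 0.49 (SE 0.53), respectively. Adjusted p of these members was between 0.485 and 0.707, and none was called.

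Ratios of members within a library do not depend on scaling and show directly that the members changed unequally. There were 120 to 188 reads of miR-148a for each read of miR-148b in lactation (119.6 in LP2 to 188 in LP1). In the dry period there were 15.7 in HD2 to 45.7 in LD1. The log2 ratio differed by 2.58 between the stages, higher in 6 of 6 lactation libraries than in any dry one (exact two-sided permutation test, p = 0.00216, adjusted over 3 ratios p = 0.00649). Leaving out any single library kept it between 2.44 and 2.75.

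The ratio of miR-148a to miR-152 was 184 to 695 in lactation and 25.8 to 199.7 in the dry period. It differed by 2.70 on the log2 scale (exact permutation p = 0.00433, adjusted p = 0.00649), and the only overlap was LP2 at 184 under LD1 at 199.7. The ratio of miR-148b to miR-152 ranged from 1.54 to 5.13 in lactation and from 0.969 to 4.71 in the dry period. It differed by 0.12 (exact permutation p = 0.829, adjusted p = 0.829). Within the dry period the ratio of miR-148a to miR-148b was 20.1, 15.7 and 25.6 in HD and 45.7, 26.7 and 32.0 in LD. All LD values lay above all HD values, a log2 difference of 0.76 with an exact permutation p of 0.1, the smallest possible for 3 against 3. The ratios of miR-148a to miR-152 and of miR-148b to miR-152 overlapped between HD and LD (exact permutation p of 0.7 and 0.8). How often ratios of other miRNAs separate HD from LD was not tested.

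**Figure D3:**
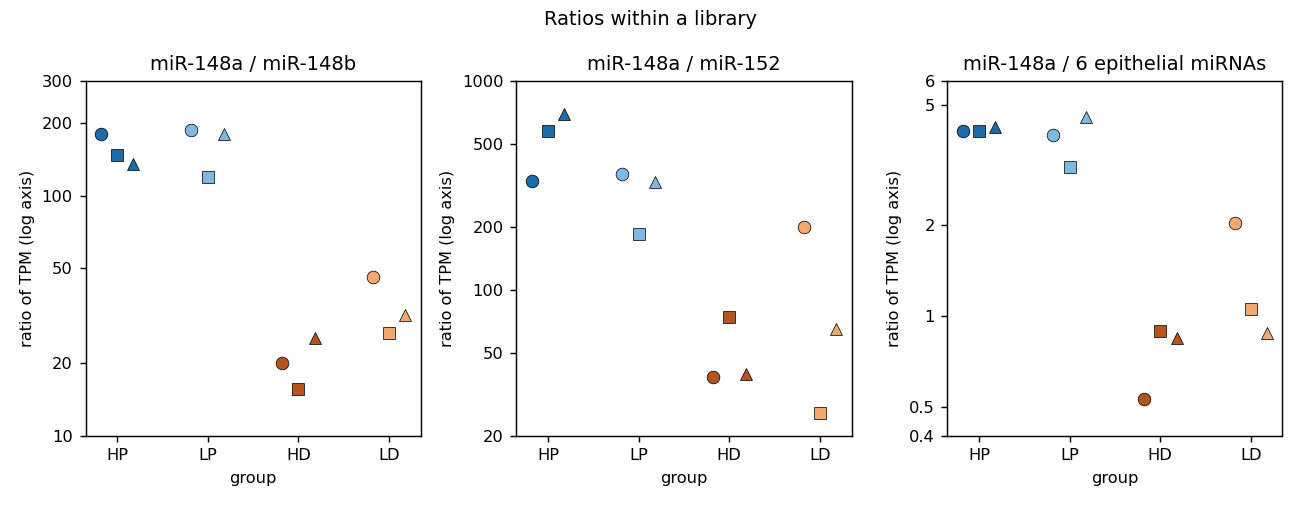
Ratios of TPM within each library, on log axes, of miR-148a to miR-148b, to miR-152 and to the sum of 6 epithelial miRNAs, by group, with circles, squares and triangles for replicates 1 to 3. The ratio to miR-148b is 120 to 188 in lactation and 15.7 to 45.7 in the dry period, and LD1 is the highest dry library in each panel.

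Cell type markers were compared between the stages with the same test, in which 22.2% of all miRNAs were called in each direction. Of 7 epithelial miRNAs listed, 6 were measured (miR-203 was not analysed here) and 5 were higher in lactation, miR-141 by 1.28, miR-200a by 1.30, miR-200b by 0.65, miR-200c by 1.09 and miR-429 by 0.69 on the log2 scale. miR-205, which is typical of basal epithelium, differed by -0.08 (adjusted p = 0.772). Their median was 0.89 against -0.01 over all miRNAs, and their summed TPM was 34301 to 44371 in lactation and 14978 to 38785 in the dry period. Both endothelial miR-126 arms were higher too (miR-126-3p by 1.12, miR-126-5p by 0.73), with a sum of 10665 to 16528 TPM in lactation and 4676 to 10738 in the dry period. Of 6 leukocyte miRNAs 3 were lower in lactation (22.2% of all miRNAs were), miR-142-5p by -0.77, miR-146a by -1.76 and miR-155 by -1.29, and their sum was 5906 to 9183 TPM against 8849 to 21918 in the dry period, with a slight overlap. Of 7 muscle and stromal miRNAs 2 were lower, a share close to the 22.2% over all miRNAs, miR-199a-3p by -0.63 and miR-214 by -1.17, and their sums overlapped. None of the 3 erythroid miRNAs passed the test, and no marker of any list was at 0 in any group.

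Per epithelial miRNA read, miR-148a was also higher in lactation. This comparison was added after the data had been seen. The TPM of miR-148a divided by the sum of the 6 epithelial miRNAs was 4.11, 4.11 and 4.21 in HP and 3.97, 3.10 and 4.57 in LP. In HD it was 0.530, 0.893 and 0.842, and in LD 2.03, 1.05 and 0.876. The stages did not overlap, and the log2 difference was 2.06 (exact two-sided permutation test, p = 0.00216). On the same scale miR-148b was lower in lactation by a log2 difference of -0.52 (exact permutation p = 0.0173, n = 6 and 6, overlapping values) and miR-152 differed by -0.64 (p = 0.123). The direction for miR-148b and miR-152 thus turned with this choice of denominator, whereas that for miR-148a did not. The part of cell makeup, the share of epithelium included, in the stage difference was not tested.

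Lactation libraries were shallower than dry libraries by their medians (10732749 and 21208518 reads), but HP2, LP1 and LP2 lay within the dry range. miR-148a was 140845 TPM in HP2 (12259867 reads), 176003 in LP1 (13374171 reads) and 106978 in LP2 (11231862 reads). It was 20547 TPM in HD1 (11047701 reads) and 53311 in LD1 (14327050 reads). The part of depth in the stage difference was not tested. Without LP1 the stage difference was 2.70.

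To ask whether the family differed with milk protein in lactation, LP was compared with HP. A miRNA was called DE where limma gave an unadjusted p under 0.05 with a log2 fold change beyond 0.8 in either direction, which 10.1% of miRNAs met, 5.93% as higher in LP. miR-152 was the only member called. Its normalized TPM was 504, 247 and 198 in HP and 583, 506 and 576 in LP. The groups were separated only by the gap between HP1 and LP2, and HP2 and HP3 carried the difference. The log2 fold change was 0.93 (SE 0.34, 95% interval 0.16 to 1.70), or 1.90-fold. The unadjusted limma p was 0.0231 and the exact permutation p was 0.1, the smallest for 3 against 3. Benjamini-Hochberg adjustment was not passed (adjusted p = 0.251, limma). By p it ranked 34 of 388, and 10.3% of all miRNAs lay higher in LP without overlap.

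The call of miR-152 was not kept with every library left out. Without HP3 (log2 fold change 0.64) both limits of the call were missed. Without HP2 (0.81), LP1 (0.89) or LP3 (0.90) only the limit on unadjusted p was missed. Fewer libraries also raise p, so these 3 losses cannot show that the call rested on the library left out. Adjusted p, which the call does not use, was between 0.465 and 0.540 in these fits (limma), against 0.251 with all 6 libraries. The call was also lost when all 12 libraries were fitted together (0.98, adjusted p = 0.474, limma), again by the limit on p alone. Without HP1 the adjusted p was 0.0188, with a log2 fold change of 1.32. Directions follow the group names of the deposited table. The study also singled out miR-152 from these libraries, so that it was picked for comparison here is not independent of them. The study listed miR-152 as lower in LP than in HP, and also as differing between HD and LD. Some cell type markers were also called in this comparison, in which 10.1% of all miRNAs were called, 5.93% as higher in LP. Of 7 muscle and stromal miRNAs miR-143 was called higher in LP (0.85), whereas the list's median was 0.07 against -0.01 over all miRNAs. Its summed TPM, most of it miR-143, was 66870 to 97798 in HP and 122166 to 157824 in LP. Of 3 erythroid miRNAs miR-144 (1.58) and miR-451 (1.36) were called higher in LP, with a sum of 781 to 1378 TPM in HP and 1126 to 2041 in LP. Of 6 leukocyte miRNAs miR-146a was called higher (1.27) and miR-150 lower (-1.69), and their sum was 6006 to 9183 TPM in HP and 5906 to 7595 in LP. No epithelial or endothelial miRNA was called. The part of these cell types in the difference of miR-152 was not tested.

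miR-148a and miR-148b did not differ detectably between HP and LP. miR-148a had 167641, 142006 and 137371 normalized TPM in HP and 209922, 93337 and 189505 in LP. The LP libraries lay on either side of all HP libraries, and the log2 fold change was 0.06 (SE 0.35, interval -0.71 to 0.84, adjusted p = 0.961, limma). miR-148b differed by 0.01 (SE 0.24, interval -0.53 to 0.54, adjusted p = 1.00).

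In the dry period no member was called between HD and LD, where 3.35% of miRNAs were called DE. After adjustment limma called 0 of 388 miRNAs, against 19 (4.9%) at an unadjusted p under 0.05. miR-148a had 15092, 17231 and 25333 normalized TPM in HD and 35840, 22003 and 32865 in LD. Only LD2 lay within the HD range, and the log2 fold change was 0.66 (SE 0.35, interval -0.16 to 1.48, adjusted p = 0.993). miR-148b differed by -0.10 (SE 0.26, interval -0.71 to 0.51) and miR-152 by 0.13 (SE 0.61, interval -1.29 to 1.55). miR-152 had 394, 233 and 638 normalized TPM in HD and 179, 851 and 505 in LD, so that the lowest and the highest dry library were both LD. Of 6 leukocyte miRNAs miR-142-3p and miR-142-5p were called higher in LD, and of 2 endothelial miRNAs miR-126-5p was, against 3.35% called over all miRNAs. No epithelial, erythroid or muscle and stromal miRNA was called. The part of these cell types in the values of the members was not tested.

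Whether the phenotype difference depended on stage was tested as an interaction in the fit over 12 libraries. It was -0.58 (SE 0.51) for miR-148a, 0.12 (SE 0.35) for miR-148b and 0.81 (SE 0.74) for miR-152, with adjusted p between 0.963 and 0.993. limma called 0 of 388 miRNAs after adjustment and 20 (5.15%) at an unadjusted p under 0.05. The call of miR-152 in lactation and its absence in the dry period therefore were not shown to differ.

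**Figure D4:**
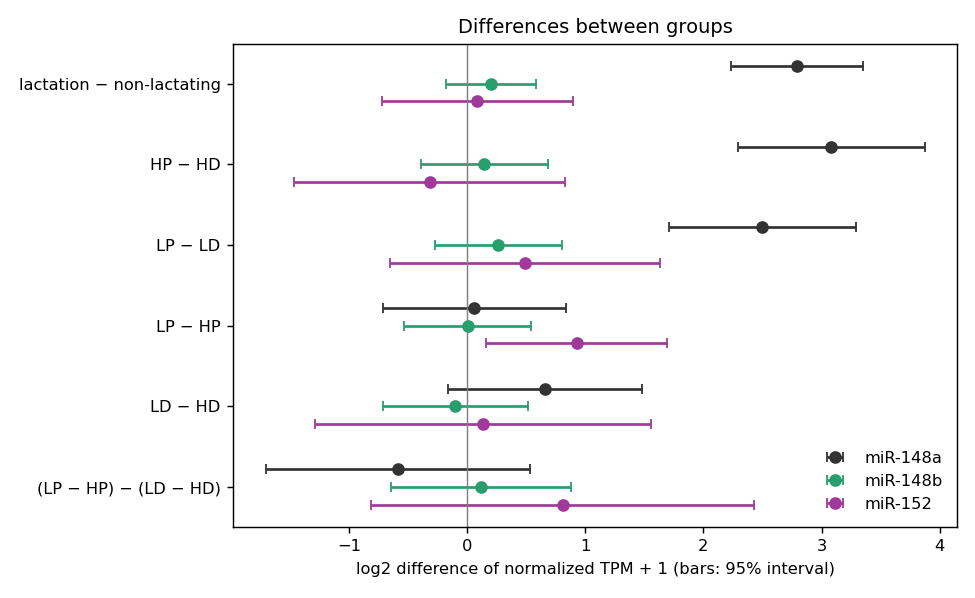
Log2 differences of normalized TPM + 1 for the 3 members in 6 comparisons, with 95% intervals from limma. Intervals of miR-148a lie above 0 in the 3 stage comparisons, and the only other interval clear of 0 is that of miR-152 for LP against HP, from 0.16 to 1.70.

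The 6 dry cows were sampled between 39 and 20 days before calving, and the members were followed over this time. By nearness to calving, miR-152 had 179 normalized TPM at 39 days (LD1), 394 at 35 (HD1), 233 at 29 (HD2), 851 at 23 (LD2), 638 at 21 (HD3) and 505 at 20 (LD3). The 3 cows nearest to calving lay above the 3 farther from it. The slope was -0.85 log2 units per 10 days farther from calving (SE 0.27), which did not pass adjustment (adjusted p = 0.0902, limma). Of all miRNAs 10.8% passed, and 27.8%, miR-152 among them, had an unadjusted p under 0.05. Pearson's r was -0.78 (exact permutation p = 0.0792, adjusted over all miRNAs p = 0.260, n = 6) and Spearman's rho was -0.71 (exact p = 0.136, adjusted p = 0.388). Without LD1 and HD1, the libraries farthest from the median day, r was -0.76. Within HD it was -0.55 and within LD -0.89, each over 3 cows.

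miR-148a had 35840 normalized TPM at 39 days, 15092 at 35, 17231 at 29, 22003 at 23, 25333 at 21 and 32865 at 20. Over the 5 cows from 35 days on the values were in the order of nearness to calving, but LD1 at 39 days was the highest of all. Pearson's r was -0.12 (exact permutation p = 0.824, n = 6) and Spearman's rho -0.14 (exact p = 0.803), and the slope was -0.08 per 10 days (SE 0.25, adjusted p = 0.883, limma). Without LD1 and HD1 r was -0.93, within HD -0.98 and within LD 0.52. The slope was -0.65 without LD1 and 0.13 without HD1, so its direction rested on single cows.

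miR-148b had 783 normalized TPM at 39 days, 752 at 35, 1098 at 29, 825 at 23, 990 at 21 and 1028 at 20. The 2 lowest values were those of the earliest cows. Pearson's r was -0.62 (exact permutation p = 0.182, n = 6), Spearman's rho was -0.60 (exact p = 0.242), r without LD1 and HD1 was 0.35, and the slope was -0.18 per 10 days (SE 0.15, adjusted p = 0.487, limma). The 3 relations were adjusted with those of all 388 miRNAs, and no exact correlation of any miRNA passed, although 20.9% had an unadjusted exact Pearson p under 0.05. With 6 cows (720 pairings) an exact p cannot fall under 0.00278. Many miRNAs would have to reach that smallest p before any passed adjustment, so this result cannot decide on a relation with days. The size factors of HD1 and LD1 were 1.50 each, against 0.764 to 1.11 in the other dry libraries. In TPM without size factors the slopes of miR-148a and miR-148b turned to 0.46 and 0.36, whereas that of miR-152 was -0.32. Days and the size factors cannot be told apart in these slopes.

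**Figure D5:**
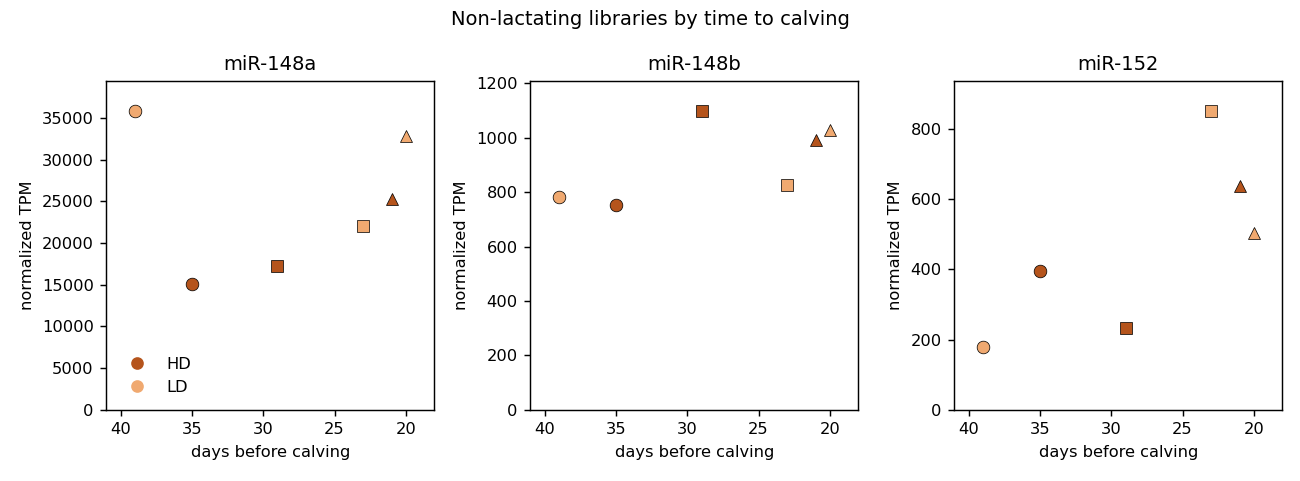
Normalized TPM of each member in the 6 dry libraries against days before calving, which run towards calving from left to right, coloured by HD and LD with circles, squares and triangles for replicates 1 to 3. miR-152 is highest in the 3 cows nearest to calving, and LD1 at 39 days is the highest library of miR-148a at 35840.

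The members differed in how much they varied. Over the 12 libraries the SD of log2 normalized TPM was 1.53 for miR-148a, 0.74 for miR-152 and 0.24 for miR-148b, against a median of 0.60 over the 234 miRNAs with a mean of at least 10 TPM. For miR-148a 13 of these miRNAs had a larger SD, for miR-152 86 and for miR-148b 231. The highest library exceeded the lowest 16.0-fold for miR-148a, 4.49-fold for miR-152 and 1.70-fold for miR-148b. miR-148b was thus among the most even miRNAs of the table and miR-148a among the most variable.

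The miRNAs whose pattern over the 12 libraries was most like that of each member were found by Pearson's r of log2 values, given as a description over libraries that share stage and scaling. For miR-148a they were miR-33b (0.97), miR-375 (0.96), miR-10166-5p (0.96), miR-12036 (0.96) and miR-33a (0.96), all of far lower mean level (miR-375 at 2190, miR-12036 at 0.679 TPM). miR-148b came 100th with r of 0.56 and miR-152 172nd with 0.09. In deviations from group means, where stage is removed, miR-12036 (0.92), miR-10166-5p (0.91), miR-33a (0.85), miR-33b (0.82) and miR-11999 (0.77) led, and miR-148b came 14th with 0.68. miR-12036 and miR-11999 (mean 0.674 TPM) lay close to the value of 3 reads, so their patterns rest on few reads. miR-33a and miR-33b, encoded in the SREBF genes of sterol and fatty acid synthesis, were in both lists of miR-148a.

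For miR-148b the leading miRNAs over 12 libraries were miR-9851 (0.81), miR-652 (0.80), miR-151-5p (0.79), miR-6120-3p (0.78) and miR-345-3p (0.78). In deviations from group means they were miR-375 (0.87), miR-7180 (0.86), miR-182 (0.85), miR-25 (0.84) and miR-6120-3p (0.84). Those of miR-152 were miR-26b (0.95), miR-16a (0.91), miR-24-3p (0.90), miR-11977 (0.82) and miR-3432a (0.80), and in deviations miR-24-3p (0.97), miR-26b (0.95), miR-11977 (0.95), miR-16a (0.92) and let-7b (0.86). The members shared none of these leading miRNAs with each other apart from miR-375, which was in a list of miR-148a and in one of miR-148b.

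The family was set beside 2 lists of miRNAs chosen with earlier results known. Of 14 other miRNAs known to be abundant in milk, 4 were higher in lactation, miR-103 by 1.06, miR-141 by 1.28, miR-200a by 1.30 and miR-200c by 1.09 on the log2 scale, and miR-182 was lower, by -1.48, a share close to that over all miRNAs. Their median was 0.20 and that of all miRNAs -0.01. Summed, these 14 had 246146 to 283634 TPM in lactation and 214850 to 321038 in the dry period, so the sum overlapped between stages while that of miR-148a, miR-148b and miR-152 did not. The miR-130, miR-301 and miR-454 family has a seed that shares a core with that of miR-148a, shifted in place, and 4 of its 5 members were lower in lactation, against 22.2% of all miRNAs. miR-130b differed by -1.35, miR-301a by -0.52, miR-301b by -1.96 and miR-454 by -0.67, and miR-130a by -0.41 (adjusted p = 0.0778, limma). Their summed TPM was 136 to 235 in lactation and 234 to 636 in the dry period. No miRNA of either list was called between HP and LP or between HD and LD.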

How the data were processed

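Small RNA libraries of mammary biopsies from 12 cows were analysed. The authors trimmed reads with Cutadapt 2.8 and Trimmomatic 0.36, kept 18 to 30 nt, mapped them with Bowtie 1.1.1 (1 mismatch, ARS-UCD1.2) and counted miRBase 22.0 miRNAs with the miRDeep2 quantifier. The deposited values are RPM (called TPM by the authors), rounded and not corrected for length. Columns were matched to groups by name, and 0 were left unused. Where a mature miRNA had several precursors, the entry with the highest mean was kept. Depth was inferred from the value of 1 read, since at least 99.8% of values above 0 were whole multiples of it within 0.0051 TPM. Day counts came from the study's list of cows.

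Size factors (median of ratios) were divided out of TPM, 1 was added, and log2 values were fitted with limma 3.58.1 (trend) in R 4.3.3. The phenotype contrasts used the 6 libraries of a stage, other contrasts a model of 4 group means over 12, and days a slope over the 6 dry libraries. In the phenotype contrasts DE meant p under 0.05 with a log2 fold change beyond 0.8 in either direction, and elsewhere calls were made at Benjamini-Hochberg adjusted p under 0.05 over 388 miRNAs. Single values were compared with two-sided exact permutation tests (Python 3.11.15, scipy 1.17.1). Scripts were tested on simulated data. Named were the members, the 5 miRNAs most like each in 2 measures, and fixed lists of markers and related miRNAs. Members and lists were chosen with earlier results of these data known, although the rule uses names alone. Alternatives were other scaling, pseudocounts (0.1 and 5), a mean of at least 10 TPM, other models and leaving out each library.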

Additional observations from a re-analysis of the deposited data

Results flagged for a closer look

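In LD1 the TPM of miR-148a was far from the other non-lactating libraries. It was 53311 against 15768 to 24465 in the other 5, and its gap to the nearest of them was 0.768 of the whole range of the 6 libraries, where Dixon's 95% limit is 0.625. Chance passes this limit in about 1 of 20 groups, and 12 groups of values of the members were examined. LD1 was the dry library sampled farthest from calving (39 days), it had a size factor of 1.50, and its normalized miR-148a of 35840 was close to the 32865 of LD3. Without LD1 the stage difference of miR-148a was 2.88.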

How the results depend on the processing

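The stage difference of miR-148a kept its direction and call in all 21 alternatives, at 2.68 to 2.99 with 1 library left out and 2.06 to 2.81 otherwise, as did its difference between HP and HD and between LP and LD in 20 each. Among comparisons where a member was not called, miR-148a for HD vs LD, miR-148b for LP vs LD, miR-148a and miR-152 for the interaction and miR-152 by days kept their sign in every alternative, and the others turned in at least 1. Without size factors miR-152 gave -0.022 for stage and -0.10 for HD vs LD, miR-148b gave -0.056 for HP vs HD and -0.030 for HP vs LP, and the slopes of miR-148a and miR-148b on days before calving were 0.46 and 0.36. For days after dry-off, with the sign turned to match days before calving, the slope of miR-148a was 0.042. With a mean of at least 10 TPM miR-148b gave -0.0018 for HP vs LP. Relative to the epithelial sum miR-148b gave -0.52 and miR-152 -0.64 for stage. For HP vs LP with all 12 libraries in 1 fit miR-152 was 0.98 and not called. The cause of these changes was not tested.

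Counts of called miRNAs moved with the processing. A mean of at least 10 TPM, which leaves 234 miRNAs to test, called 114 by stage (172 before) and 8 for HD vs LD (13 before). Without size factors 45 were called for LP vs LD (86 before), 3 for HD vs LD and 120 by days before calving (42 before). A pseudocount of 5 called 22 for HP vs LP (39 before) and 7 for HD vs LD. By days, limma without trend called 21, phenotype and days in 1 model 24, and days after dry-off 1.

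With 1 library left out, miR-152 ranged from -0.21 to 0.33 for stage, from -0.71 to 0.066 for HP vs HD, from -0.11 to 0.96 for LP vs LD (-0.11 without LD1), from 0.64 to 1.32 for HP vs LP and from -0.36 to 0.76 for HD vs LD. miR-148b ranged from -0.049 to 0.30 for HP vs HD, from -0.093 to 0.15 for HP vs LP, from -0.27 to 0.033 for HD vs LD and from -0.053 to 0.32 for the interaction. miR-148a ranged from -0.16 to 0.42 for HP vs LP and from -0.65 to 0.13 for days. The ratio of miR-148b to miR-152 ranged from -0.12 to 0.34. Counts ranged from 34 (without LP3) to 100 for LP vs LD, with 43 without LD3 and 57 without LP1. They ranged from 24 (without LP1) to 53 for HP vs LP and from 6 (without HD2) to 36 (without LD1) for HD vs LD, with 8 without LD2. By days they ranged from 0 (without HD1 or LD1) to 39, with 6 without HD3 and 7 without LD3.

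Same-numbered libraries came from different cows, and their deviations from group means did not correlate throughout (-0.20, -0.26 and 0.01 in lactation, 0.54, -0.11 and 0.50 in the dry period), so the numbers were not taken as pairs. With a replicate block the stage difference of miR-148a was 2.79 (adjusted p = 3.3e-05, limma) and 170 miRNAs were called, and no member gained or lost a call. Count models (edgeR and DESeq2) were planned and not run, since the deposited values are rounded RPM. The read numbers given in the text were inferred from these values. With 3 cows a group, an exact permutation test between 2 groups cannot give a p under 0.1. Differences between phenotypes of any size within the 95% intervals given in the text were not excluded.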
